A study of Mus musculus with 2 samples.

Results

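The genes described here are the dual-specificity phosphatases of the Dusp family together with the Sprouty and Spred inhibitors, which limit signalling through the MAP kinases. Members were taken by symbol from the 2 deposited tables of mouse genes, and 29 of the 17431 genes with a read matched, 22 of them Dusp genes, 4 Spry genes and 3 Spred genes. Their RNA was compared between 1 library of skin-derived precursors (SKPs), multipotent cells of the dermis selected by growth in growth factors, and 1 library of dermal fibroblasts. Both cultures came from BALB/c mouse dermis. The SKPs, from mice at postnatal day 4, grew in DMEM/F12 to which 40 ng/ml FGF2, 20 ng/ml EGF and B27 (2%) had been added, and the fibroblasts, from mice at postnatal day 3, grew in DMEM with 10% fetal bovine serum. Cell type, medium, growth factors and age therefore cannot be told apart. There were no replicates, so each difference is one between these 2 libraries, no test was possible, and the 95% intervals given are exact counting intervals that cover counting error only.

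FGF and EGF receptors pass their signal through Ras, Raf and MEK to the kinase ERK, while the related kinases JNK and p38 answer mainly to stress and cytokines. Dual-specificity MAP kinase phosphatases remove the activating phosphates from these kinases, each with its own preference and place in the cell. Sprouty and Spred proteins act higher up, at the membrane, where they hold back the step from receptor to Ras and Raf. Many of these genes are themselves switched on by ERK, and so act as a negative feedback loop. The atypical Dusp proteins are small phosphatases without the docking domain for MAP kinases, and several act on other substrates, RNA among them.

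The SKP library held more RNA of several feedback inhibitors of ERK. The ERK phosphatase genes Dusp6, Dusp9 and Dusp5, the Sprouty genes Spry4 and Spry2, and Spred1 were 3.08-fold to 11.2-fold higher there, and Dusp4, Dusp10 and Dusp15 were 2.34-fold to 4.23-fold higher. The stress kinase phosphatase gene Dusp8 was 10.8-fold lower in the SKP library, and the broad phosphatase gene Dusp1 and the atypical Dusp3 were about 2-fold lower. Of the 10 expressed atypical Dusp genes, 8 were under 2-fold apart, a share close to that of all expressed genes (9826 of 12053). Levels are in RPKM, reads per kilobase of gene length scaled to a common library total. A gene was called expressed if either library reached RPKM 1 with at least 20 reads. It was called higher or lower if the ratio was past 2-fold and its interval did not hold 1. Of the 29 members 25 were expressed, and 9 of these were called higher in SKPs, 3 lower and 13 under 2-fold apart. Dusp15, among the 9, and Dusp8, among the 3, reached RPKM 1 in only 1 library, so the filter fixed their direction. The shares were 36% higher and 12% lower among expressed members, against 12.1% higher and 6.41% lower among all 12053 expressed genes. The median log2 ratio (SKP over fibroblast) was 0.40 over the expressed members and 0.37 over all 29, against -0.01 over all expressed genes. Of the members, 19 had the higher value in the SKP library and 10 in the fibroblast library.

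**Figure D1:**
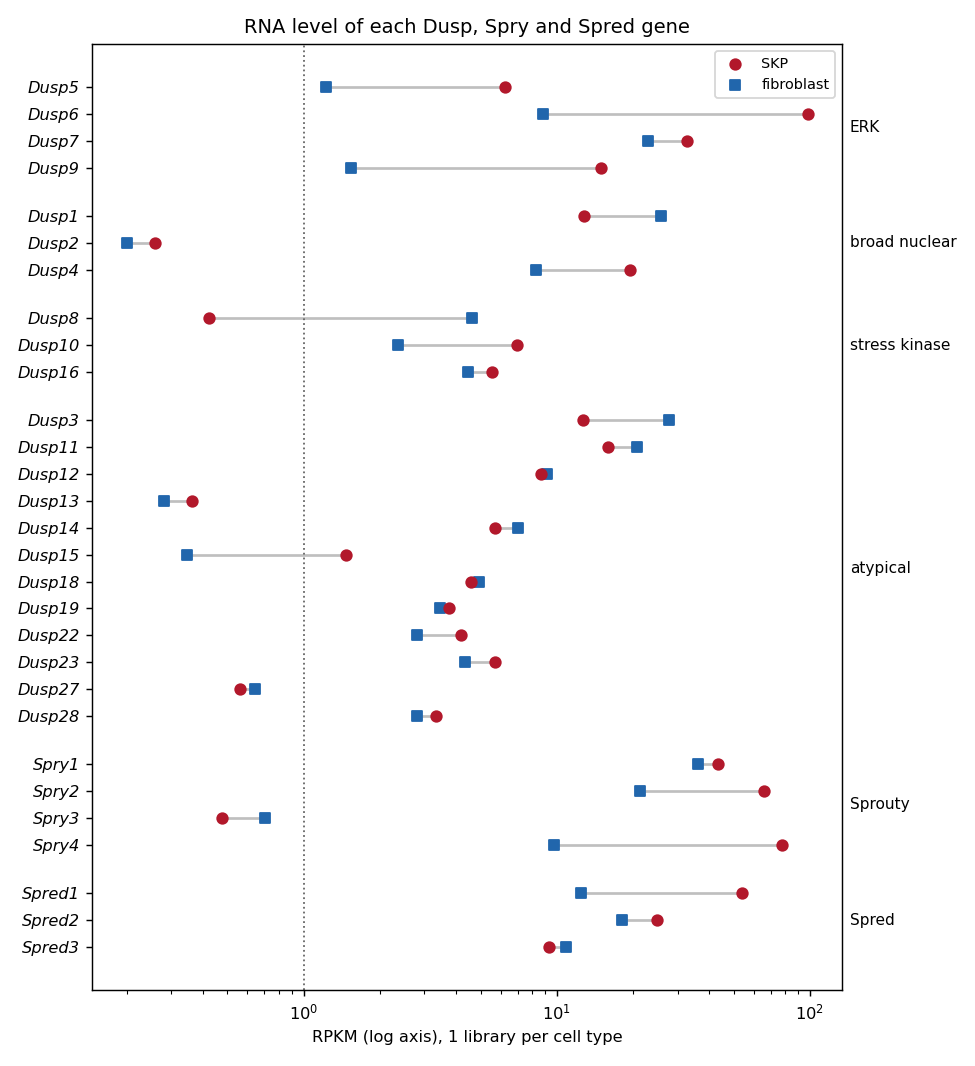
RNA level in RPKM (log axis) of the 29 Dusp, Spry and Spred genes in the SKP library (circles) and the fibroblast library (squares), 1 library each, grouped by the kinase or protein class; the dotted line marks RPKM 1. Dusp6 stood at 98.4 RPKM in the SKP library and 8.82 RPKM in the fibroblast library. Of the 10 expressed atypical Dusp genes 8 were under 2-fold apart, close to the share of all expressed genes (9826 of 12053).

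The SKP library had 22981183 reads, of which 82.5% were counted in genes, and the fibroblast library had 23374716 reads, of which 78.7% were counted. The members took 31508 of these reads in SKPs and 15969 in fibroblasts. Fibroblast markers summed to 10844 RPKM in the SKP library and 11082 RPKM in the fibroblast library, and all 12 were expressed, with 4 called higher in SKPs (Lum, Fap, Dcn and Col3a1) and 2 lower (Thy1 and Col1a1). All 10 SKP markers passed the filter too, with sums of 1111 RPKM in SKPs and 1166 RPKM in fibroblasts. Most of both sums was Fn1, at 758 RPKM in SKPs and 877 RPKM in fibroblasts. Nes was called higher in SKPs, at 28.2 RPKM against 6.30 RPKM in fibroblasts, and 0 were called lower. Msx1, with 0 reads in fibroblasts, and Sox2, at 0.818 RPKM there, passed through SKPs only, so the filter fixed their direction. Markers of other skin cells were also detected, and whether other cells or the cultured cells themselves gave these reads was not tested. Keratinocyte markers summed to 39.0 RPKM in SKPs and 3.39 RPKM in fibroblasts, and 7 of 12 were expressed. Mast cell markers summed to 152 RPKM in SKPs and 2.07 RPKM in fibroblasts, and 8 of 10 were expressed. All expressed genes of both lists but Gata2 reached RPKM 1 in SKPs only, so the filter fixed their direction and no count of calls is given. Leukocyte markers summed to 30.6 RPKM in SKPs and 5.26 RPKM in fibroblasts, and adipocyte markers to 564 RPKM in SKPs and 360 RPKM in fibroblasts, with 8 of 10 called higher in SKPs and Lpl lower. Endothelial markers summed to 5.04 RPKM in SKPs and 2.08 RPKM in fibroblasts, with 7 of 8 below the filter and Cdh5 alone at 3.57 RPKM in SKPs, while Kdr and Vwf had lower levels in SKPs than in fibroblasts. Melanocyte and Schwann cell markers summed to 22.8 RPKM in SKPs and 13.0 RPKM in fibroblasts, with 2 called higher in SKPs and 3 lower. The markers Ivl, Krt1, Cpa3, Mcpt4, Fcer1a, Emr1, Lep, Retn and Msx1 had 0 reads in fibroblasts, and Krt15 had 0 reads in both. Their part in the results below was not tested, and in RNA of a whole culture fewer cells of a type and less RNA per cell cannot be told apart.

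The ERK phosphatase genes Dusp6 and Dusp9 had the highest ratios of the family. Dusp6 encodes the cytoplasmic phosphatase that acts on ERK almost alone, and its transcription is a common readout of FGF signalling. It had 5249 reads in SKPs and 457 reads in fibroblasts, or 98.4 RPKM in SKPs and 8.82 RPKM in fibroblasts, an 11.2-fold higher level in SKPs (10.1 to 12.3). By level it was the 646th gene of the SKP library and the 6393rd gene of the fibroblast library, and its ratio was the 341st highest of the 12053 expressed genes. Dusp9 encodes a related phosphatase that prefers ERK and is known from placenta and embryonic stem cells. It stood at 15.0 RPKM (772 reads) in SKPs and 1.54 RPKM (77 reads) in fibroblasts, a 9.74-fold higher level (7.70 to 12.5). Dusp5, the ERK phosphatase of the nucleus, had 137 reads in SKPs and 26 reads in fibroblasts and was 5.12-fold higher (3.35 to 8.11). Its levels were 6.26 RPKM in SKPs and 1.22 RPKM in fibroblasts, the latter close to the filter limit of RPKM 1. Dusp7, a cytoplasmic ERK phosphatase close to Dusp6, was under 2-fold apart, at 32.6 RPKM in SKPs and 22.9 RPKM in fibroblasts (1.42-fold, 1.33 to 1.53).

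The make-up of the class therefore differed as well as its sum. The 4 genes summed to 152 RPKM in SKPs and 34.5 RPKM in fibroblasts, a ratio of 4.42. Dusp6 made up 64.6% of that sum in SKPs and 25.6% in fibroblasts. Dusp7 made up 21.4% of the sum in SKPs and 66.4% in fibroblasts, where it was the main transcript of the class.

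A pair of promoters of this class is shown, that of Dusp6 because it had the largest ratio of the family and that of Dusp5 because of the letters it holds. They are RefSeq sequences of the build GRCm38.p6, given 5′ to 3′ on the gene's strand, and cover the 250 bases before the annotated start. That build is not the one used for the counts. Dusp6 lies at chr10:99262981-99263230 on the plus strand, and Dusp5 at chr19:53528895-53529144 on the plus strand. Capitals mark CCAAT in Dusp6, here read on the opposite strand, and CArG boxes in Dusp5. The CArG box is the binding sequence of serum response factor.
Dusp6: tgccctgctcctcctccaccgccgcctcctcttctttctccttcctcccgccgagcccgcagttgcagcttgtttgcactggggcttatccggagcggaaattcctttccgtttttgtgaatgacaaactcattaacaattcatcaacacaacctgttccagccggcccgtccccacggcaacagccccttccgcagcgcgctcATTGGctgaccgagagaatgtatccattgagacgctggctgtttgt
Dusp5: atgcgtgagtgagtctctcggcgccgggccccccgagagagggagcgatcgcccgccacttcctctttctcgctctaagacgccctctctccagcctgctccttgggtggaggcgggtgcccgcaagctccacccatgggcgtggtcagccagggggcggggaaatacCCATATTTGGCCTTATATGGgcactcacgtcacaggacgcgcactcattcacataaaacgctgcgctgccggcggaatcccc
The Dusp5 window held 2 CArG boxes side by side, 63 to 82 bases before the start. A CArG box on either strand was found in 1.47% of all 32851 promoter windows of this length and in 1 of the 26 windows of members. CCAAT was found in 33.8% of all windows and in 12 of the 26.

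**Figure D2:**
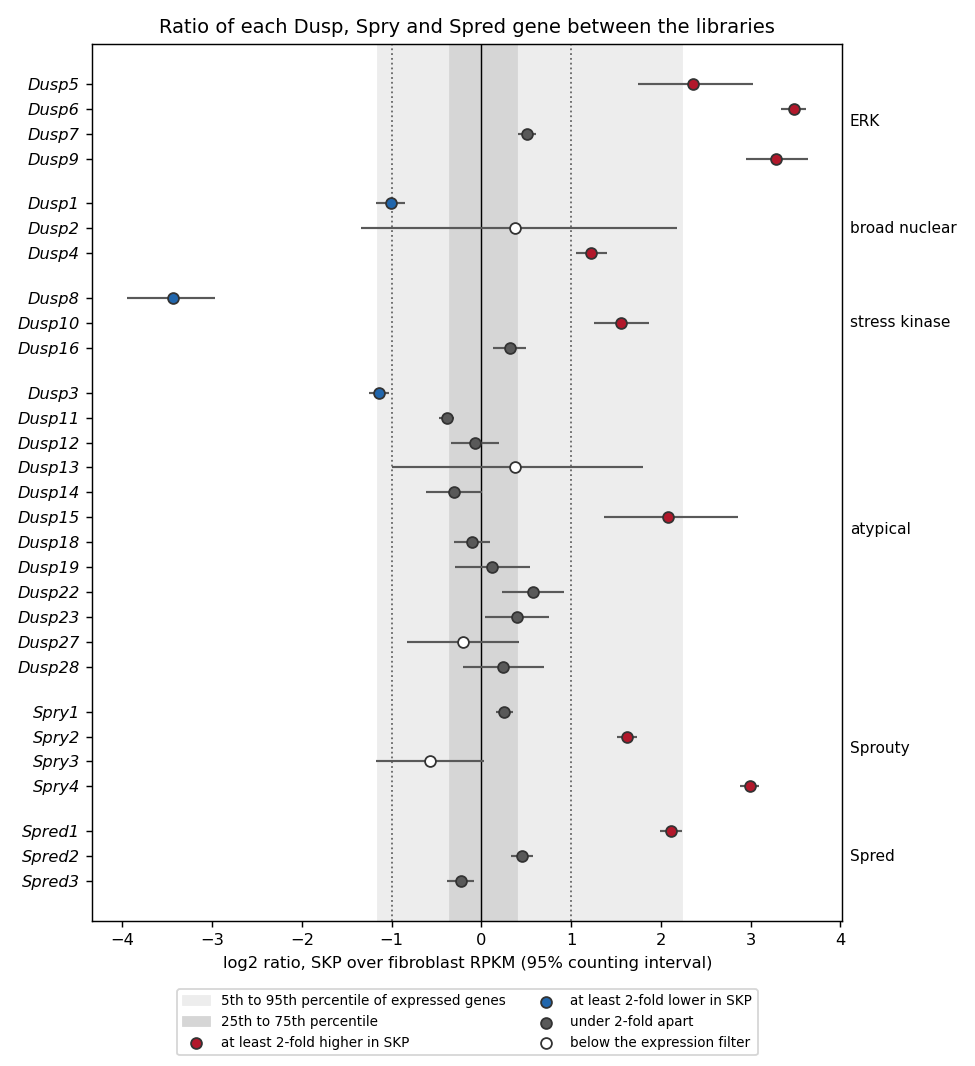
Ratio of RPKM, SKP over fibroblast, on the log2 scale for each of the 29 genes, with 95% exact counting intervals as bars; shaded bands give the percentiles of all expressed genes and dotted lines mark 2-fold. Dusp6, Dusp9, Spry4 and Dusp5 lie above the 95th percentile and Dusp8 lies far below the 5th.

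The nuclear phosphatases of broad range went in opposite directions. Dusp4, an inducible nuclear phosphatase that acts on ERK and JNK, stood at 19.4 RPKM (893 reads) in SKPs and 8.30 RPKM (371 reads) in fibroblasts, a 2.34-fold higher level in SKPs (2.07 to 2.65). Dusp1, an immediate early gene whose product prefers p38 and JNK, stood at 12.8 RPKM (475 reads) in SKPs and 25.8 RPKM (928 reads) in fibroblasts. It was 2.01-fold lower in the SKP library (1.80 to 2.25), close to the 2-fold limit, and on the log2(RPKM + 1) scale it was no longer 2-fold apart. Dusp1 was thus the more abundant of the pair in fibroblasts and Dusp4 in SKPs. Dusp4 made up 59.7% of the class in SKPs and 24.2% in fibroblasts, while the sums had a ratio of 0.947, at 32.5 RPKM in SKPs and 34.3 RPKM in fibroblasts. Dusp2, known from activated immune cells, had 8 reads in SKPs and 6 reads in fibroblasts, too few for a difference to be detectable.

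Among the 3 phosphatases of the stress kinases JNK and p38, Dusp8 was lower in SKPs, Dusp10 was higher and Dusp16 was neither. Dusp8 had 39 reads in SKPs and 411 reads in fibroblasts, or 0.425 RPKM in SKPs and 4.61 RPKM in fibroblasts, and was 10.8-fold lower in the SKP library (7.80 to 15.5). Reads covered 26.0% of its length in SKPs and 84.3% in fibroblasts, and its ratio was the 81st lowest of all expressed genes. It was the 1 member expressed by the level in fibroblasts only, so the filter fixed its direction. It was also called lower without an expression filter. Dusp10, a phosphatase of p38 and JNK, stood at 6.95 RPKM (357 reads) in SKPs and 2.36 RPKM (118 reads) in fibroblasts and was 2.94-fold higher (2.38 to 3.65). Dusp16, which acts mainly on JNK, was under 2-fold apart at 5.54 RPKM in SKPs and 4.45 RPKM in fibroblasts (1.24-fold, 1.09 to 1.42). The class summed to 12.9 RPKM in SKPs and 11.4 RPKM in fibroblasts, and its make-up differed. Dusp10 gave 53.8% of it in SKPs and 20.7% in fibroblasts. Dusp8 gave 3.29% in SKPs and 40.4% in fibroblasts, and Dusp16 gave 42.9% in SKPs and 39.0% in fibroblasts. The counting intervals of the Dusp8 and Dusp16 levels overlapped in fibroblasts.

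The promoters of Dusp8 and Dusp1 are shown because both genes were lower in the SKP library and both windows hold TGACGTCA, the full cyclic AMP response element. Dusp8 lies at chr7:142095285-142095534 on the minus strand, and Dusp1 at chr17:26508473-26508722 on the minus strand, in the same build. Capitals mark TGACGTCA in both, CCAAT on the opposite strand in Dusp8 and the E-box CACGTG in Dusp1.
Dusp8: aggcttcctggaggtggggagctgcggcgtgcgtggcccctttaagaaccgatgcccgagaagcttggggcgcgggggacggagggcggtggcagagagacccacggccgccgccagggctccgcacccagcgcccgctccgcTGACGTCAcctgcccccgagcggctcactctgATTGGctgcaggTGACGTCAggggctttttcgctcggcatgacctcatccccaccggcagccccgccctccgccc
Dusp1: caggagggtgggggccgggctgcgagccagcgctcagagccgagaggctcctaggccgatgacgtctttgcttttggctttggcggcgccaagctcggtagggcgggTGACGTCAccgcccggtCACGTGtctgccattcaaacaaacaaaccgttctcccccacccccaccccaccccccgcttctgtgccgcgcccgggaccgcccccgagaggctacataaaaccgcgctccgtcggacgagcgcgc
TGACGTCA occurred at 2 places in Dusp8, 100 to 107 and 56 to 63 bases before the start, and once in Dusp1, 136 to 143 bases before it. It was in 1.55% of all promoter windows and in no other member window. The window of Dusp3, which was also called lower, did not hold it. CACGTG was in 6.02% of all windows and, among members, in those of Dusp1 and Dusp2. The AP-1 sequence, TGA and TCA around any 1 base, was in 6.75% of all windows and among members in a window of Dusp13. The ETS sequence CCGGAA was in 12.0% of all windows and in those of Dusp14 and Dusp27. The TATA box was in 12.4% of all windows, as TATAAA, and in 0 of the 26. Of the 9 members higher in the SKP library, 5 had a window here, namely Dusp6, Dusp5, Dusp10, Spry2 and Spred1. Their windows held 0 of these 5 sequences. Of the other sequences searched, the CArG box was in that of Dusp5 and CCAAT in those of Dusp6 and Dusp10. Windows of Dusp4, Dusp9, Dusp15 and Spry4 were not analysed here. The 26 windows belonged to 23 of the 29 members and had a median GC content of 59.4%, against 52.4% in all windows, with a median of 16.5 CpG against 6. A match describes the letters only.

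By calls the atypical Dusp genes were the most even class of the family, but no more even than genes at large. Of all 12053 expressed genes, 9826 were under 2-fold apart. Of 12 members 10 were expressed, and the calls were 1 higher, 1 lower and 8 under 2-fold, around a median log2 ratio of 0.02. Dusp3, a small phosphatase that acts on ERK, JNK and the EGF receptor, stood at 12.7 RPKM (1009 reads) in SKPs and 27.9 RPKM (2157 reads) in fibroblasts and was 2.20-fold lower in the SKP library (2.04 to 2.37). It was the most abundant atypical gene of the fibroblast library and second to Dusp11 in the SKP library. Dusp15, a lipid-anchored phosphatase linked to oligodendrocyte differentiation, had 87 reads in SKPs and 20 reads in fibroblasts and was 4.23-fold higher (2.58 to 7.26). It was the 1 member expressed by the level in SKPs only, at 1.47 RPKM in SKPs and 0.348 RPKM in fibroblasts. The filter therefore fixed its direction, and it was also called higher without an expression filter. On the log2(RPKM + 1) scale its difference was 0.87.

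The other atypical genes lay closer together. Dusp11, which removes phosphates from the end of RNA, stood at 15.9 RPKM in SKPs and 20.8 RPKM in fibroblasts. Dusp12, a zinc-binding phosphatase, stood at 8.70 RPKM in SKPs and 9.15 RPKM in fibroblasts, with an interval of the ratio from 0.790 to 1.14. Dusp14, a negative regulator of T cell receptor signalling, stood at 5.71 RPKM in SKPs and 7.04 RPKM in fibroblasts. These 3 had the lower value in the SKP library, but only for Dusp11 did the interval exclude equality (1.31-fold, 1.23 to 1.39). Dusp22, a regulator of JNK and of T cell receptor signalling, came nearest to the 2-fold limit from within, at 4.19 RPKM in SKPs and 2.81 RPKM in fibroblasts (1.49-fold, 1.17 to 1.90). Dusp23 stood at 5.70 RPKM in SKPs and 4.33 RPKM in fibroblasts (1.32-fold, 1.02 to 1.69). The intervals of Dusp18, a phosphatase found in mitochondria, of Dusp19, which acts in the JNK pathway, and of Dusp28 included equality. Dusp18 had 403 reads in SKPs and 421 reads in fibroblasts, Dusp19 had 104 reads in SKPs and 93 reads in fibroblasts, and Dusp28 had 94 reads in SKPs and 77 reads in fibroblasts. Below the expression filter were the muscle and testis gene Dusp13, with 12 reads in SKPs and 9 reads in fibroblasts, and the muscle gene Dusp27, with 43 reads in SKPs and 48 reads in fibroblasts.

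**Figure D3:**
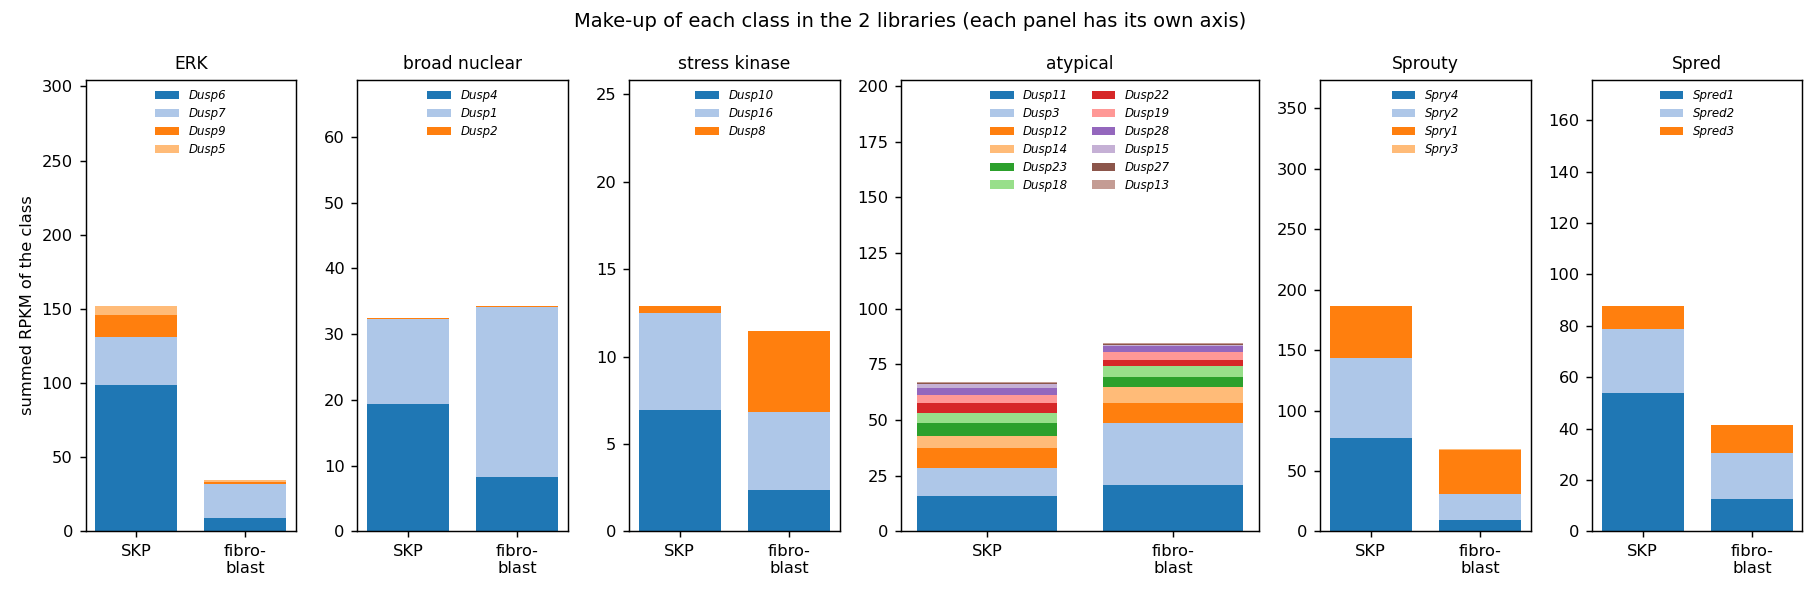
Summed RPKM of each class in the SKP library (left bar) and the fibroblast library (right bar), stacked by gene, with a separate axis from 0 in each panel. The ERK, Sprouty and Spred sums are larger in SKPs, while the broad nuclear and stress kinase sums are nearly level and differ in the shares of their genes.

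Spry1 and Spry2 were among the 5 most abundant members in both libraries. Spry4, an inhibitor of Ras activation by growth factor receptors, had 6760 reads in SKPs and 826 reads in fibroblasts, or 77.4 RPKM in SKPs and 9.73 RPKM in fibroblasts. The level in SKPs was 7.95-fold higher (7.39 to 8.56), and Spry4 ranked 2 of 29 by level in SKPs and 10 of 29 in fibroblasts. Spry2, which also binds the ubiquitin ligase Cbl, stood at 65.8 RPKM (2624 reads) in SKPs and 21.4 RPKM (827 reads) in fibroblasts, a 3.08-fold higher level (2.85 to 3.34). Spry1, a regulator of FGF and GDNF signalling in development, was close to level at 43.2 RPKM in SKPs and 36.2 RPKM in fibroblasts (1.19-fold, 1.12 to 1.27). It was the most abundant member of the whole family in fibroblasts, above Dusp3 at 27.9 RPKM, and their counting intervals did not overlap. Spry3 had 41 reads in SKPs and 59 reads in fibroblasts and lay below the filter.

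The order of the Sprouty genes was reversed between the libraries. In SKPs it was Spry4, Spry2 and Spry1, and in fibroblasts Spry1, Spry2 and Spry4, with counting intervals that did not overlap between neighbours in either library. Spry4 gave 41.4% of the Sprouty sum in SKPs and 14.3% in fibroblasts, and Spry1 gave 23.1% in SKPs and 53.2% in fibroblasts. The sums were 187 RPKM in SKPs and 68.0 RPKM in fibroblasts.

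Spred proteins bind Ras and Raf, and Spred1 brings the Ras inhibitor neurofibromin to the membrane. Spred1 stood at 53.8 RPKM (3102 reads) in SKPs and 12.5 RPKM (698 reads) in fibroblasts a 4.32-fold higher level in SKPs (3.98 to 4.69). Spred2 stood at 24.8 RPKM in SKPs and 18.2 RPKM in fibroblasts (1.36-fold, 1.26 to 1.48). Spred3 had the lower value in the SKP library, at 9.28 RPKM in SKPs and 10.9 RPKM in fibroblasts (1.17-fold, 1.06 to 1.30). Only Spred1 of the 3 was past the 2-fold limit, and it gave 61.2% of the Spred sum in SKPs and 30.02% in fibroblasts. Nf1, the neurofibromin gene, was under 2-fold apart, at 12.1 RPKM in SKPs and 7.56 RPKM in fibroblasts.

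The order of levels over the whole family differed at its head. In SKPs the most abundant members were Dusp6, Spry4, Spry2, Spred1 and Spry1, with counting intervals that did not overlap between neighbours. In fibroblasts they were Spry1, Dusp3, Dusp1, Dusp7 and Spry2. There Dusp3 and Dusp1 had overlapping intervals, as did Dusp7 and Spry2, and Spry2 overlapped with Dusp11 at 20.8 RPKM. Dusp6 ranked 12 of 29 in fibroblasts.

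In the authors' deposited table of the comparison, a filtered version holds genes with an absolute log2 ratio from 1.00 up and a false discovery rate (FDR) below 0.001. It lists 12 members, 9 higher in SKPs and 3 lower, and they are the ones named above as higher or lower. Its ratios come from the same reads, so it is no separate check. Of the 17431 genes in the full table, 10.5% are listed there as higher in SKPs and 4.8% as lower. Such an FDR compares the reads of these 2 libraries and not the conditions.

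The genes of the Ras, Raf, MEK and ERK chain were under 2-fold apart. Of 14 expressed genes of Ras, Raf, MEK and ERK, 0 were called higher and 0 lower, around a median log2 ratio of -0.11. For this list and those below, the shares among all expressed genes were 12.1% higher and 6.41% lower. Mapk3, which encodes one of the ERK kinases, stood at 103 RPKM in SKPs and 98.7 RPKM in fibroblasts, and the Ras-related gene Rras at 74.2 RPKM in SKPs and 113 RPKM in fibroblasts. The MEK gene Map2k1 came closest to the limit, at 32.6 RPKM in SKPs and 64.5 RPKM in fibroblasts (fibroblast over SKP 1.98-fold, 1.85 to 2.11). Hras1 stood at 12.7 RPKM in SKPs and 21.3 RPKM in fibroblasts.

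Of 10 expressed JNK and p38 pathway kinases 1 was called higher and 0 lower, around a median of 0.12, not far from the shares of all expressed genes. The one was Map2k6, which activates p38, at 3.76 RPKM in SKPs and 1.00 RPKM in fibroblasts (3.76-fold, 2.61 to 5.52). The p38 gene Mapk14 stood at 21.7 RPKM in SKPs and 28.6 RPKM in fibroblasts, and the p38 activator gene Map2k3 at 25.9 RPKM in SKPs and 31.4 RPKM in fibroblasts. The JNK gene Mapk9 stood at 17.4 RPKM in SKPs and 13.5 RPKM in fibroblasts, and Mapk12, a further p38 gene, at 3.41 RPKM in SKPs and 4.48 RPKM in fibroblasts.

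Upstream, 6 of 9 receptor genes for FGF and EGF were expressed, with 1 called higher in SKPs, 1 lower and 4 under 2-fold. Egfr, the EGF receptor, stood at 20.3 RPKM in SKPs and 9.62 RPKM in fibroblasts (2.11-fold, 1.96 to 2.27), and Fgfr2 was 4.83-fold lower in the SKP library (4.11 to 5.70) at 1.83 RPKM in SKPs and 8.83 RPKM in fibroblasts. The main receptor gene by level, Fgfr1, stood at 152 RPKM in SKPs and 84.5 RPKM in fibroblasts (1.79-fold, 1.75 to 1.84), and the receptor-like Fgfrl1 at 13.4 RPKM in SKPs and 8.67 RPKM in fibroblasts. Of 9 expressed adaptor and Ras activator genes only Gab2, a docking protein, was past the limit, against 12.1% called higher among all expressed genes. It stood at 7.61 RPKM in SKPs and 3.35 RPKM in fibroblasts (2.27-fold, 2.01 to 2.57). The adaptor gene Shc1 stood at 133 RPKM in SKPs and 91.3 RPKM in fibroblasts, the phosphatase gene Ptpn11 at 33.8 RPKM in SKPs and 37.3 RPKM in fibroblasts, and the FGF receptor substrate gene Frs2 at 13.4 RPKM in SKPs and 21.5 RPKM in fibroblasts.

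Genes known to be induced by ERK were mostly higher in the SKP library. Of 17 expressed ERK target genes, none of them a member, 12 were called higher, 1 lower and 4 under 2-fold, around a median log2 ratio of 1.66. Among all expressed genes, 12.1% were called higher and 6.41% lower. Egr2, at 0.914 RPKM in fibroblasts, and Egr3, at 0.499 RPKM there, passed the filter through the SKP library only. The filter therefore fixed the direction of both, and they are counted among the 12. The transcription factor genes Egr2 and Egr3 were 39.2-fold (29.6 to 53.1) and 19.9-fold (11.5 to 37.96) higher, and Etv1 12.7-fold (11.1 to 14.6). Egr1 stood at 94.3 RPKM in SKPs and 17.3 RPKM in fibroblasts, and the cyclin gene Ccnd1 at 236 RPKM in SKPs and 74.7 RPKM in fibroblasts. Myc was the one that was lower, at 8.93 RPKM in SKPs and 23.7 RPKM in fibroblasts, and the immediate early genes Fos, Junb and Ier3 were among those under 2-fold apart, as was Plaur.

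Other inhibitors of receptor and Ras signalling were divided: of 17 expressed, 6 were called higher in SKPs, 1 lower and 10 under 2-fold, around a median of 0.58. The EGF receptor inhibitors Errfi1 (4.69-fold, 4.27 to 5.16) and Lrig1 (3.60-fold, 3.45 to 3.76) and the ubiquitin ligase gene Cblb (3.02-fold, 2.84 to 3.22) had the largest ratios. Sulf1, a heparan sulfatase that weakens FGF signalling, was 5.79-fold lower in the SKP library (5.03 to 6.69), at 2.64 RPKM in SKPs and 15.3 RPKM in fibroblasts. Its relative Sulf2 stood at 128 RPKM in SKPs and 69.0 RPKM in fibroblasts, and the Raf inhibitor gene Pebp1 at 173 RPKM in SKPs and 178 RPKM in fibroblasts.

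Dual-specificity phosphatase genes outside the family, 15 of 18 expressed, were mostly under 2-fold apart, as were most expressed genes. The calls were 1 higher in SKPs, 0 lower and 14 neither, around a median of -0.08. Among all 12053 expressed genes, 9826 were under 2-fold apart. The one was Ssh2, a cofilin phosphatase of the Slingshot family, at 16.0 RPKM in SKPs and 5.72 RPKM in fibroblasts (2.80-fold, 2.60 to 3.02). Ssh1 stood at 8.78 RPKM in SKPs and 5.31 RPKM in fibroblasts, and Ssh3 at 6.31 RPKM in SKPs and 11.5 RPKM in fibroblasts. Cdc14b, a cell cycle phosphatase, stood at 2.30 RPKM in SKPs and 4.24 RPKM in fibroblasts. Ptp4a2, of the PRL phosphatases, stood at 123 RPKM in SKPs and 89.2 RPKM in fibroblasts. Of the 3 tyrosine phosphatases of MAP kinases only Ptpn5 was expressed, with 82 reads in SKPs and 4 reads in fibroblasts (19.9-fold, 7.49 to 74.8). At 1.38 RPKM in SKPs and 0.0693 RPKM in fibroblasts, it passed the filter narrowly and through SKPs only, so the filter fixed its direction.

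**Figure D4:**
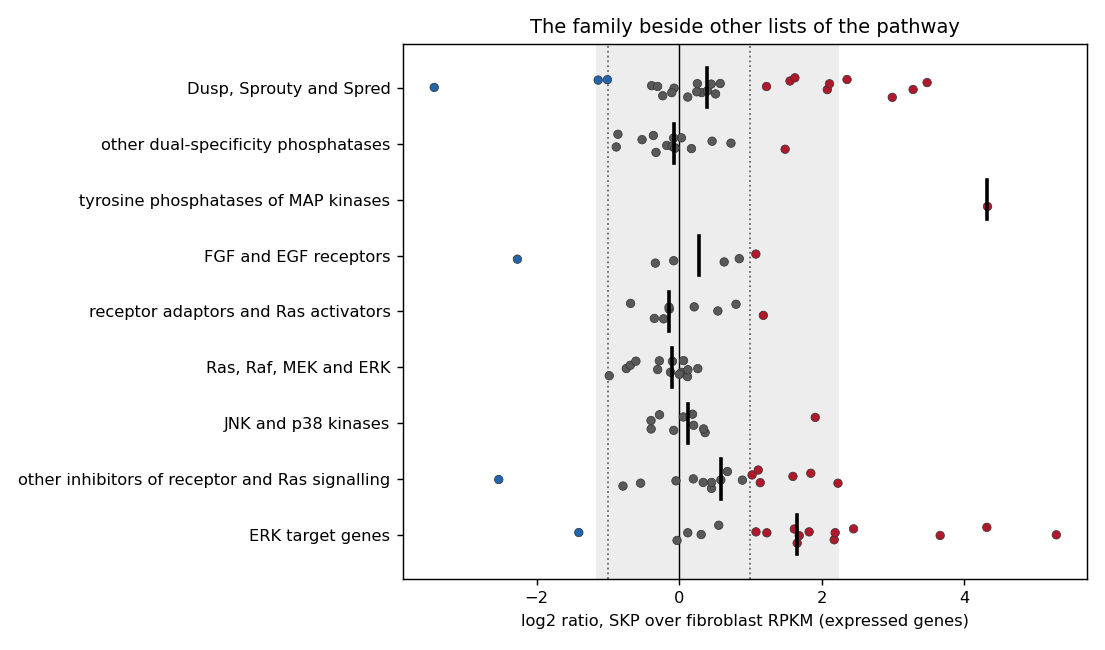
Difference in level on the log2 scale (RPKM, SKP over fibroblast) for the expressed Dusp, Sprouty and Spred genes and for 8 other lists of the pathway, 1 point per gene, with black bars at the medians, the 5th to 95th percentile of all expressed genes shaded and dotted lines at 2-fold. Ras, Raf, MEK and ERK genes lie between the dotted lines, while ERK target genes reach furthest to the right.

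A few members share their place in the genome with another gene in the RefSeq annotation, and strand was not given for the counting. Spred3 overlaps Ggn, which had 68 reads in SKPs and 52 reads in fibroblasts. Dusp18 overlaps 4921536K21Rik, with 26 reads in SKPs and 33 reads in fibroblasts, and Dusp15 overlaps Ttll9, with 4 reads in SKPs and 3 reads in fibroblasts. Dusp6, Dusp8, Dusp16 and Dusp28 overlap genes that had 0 reads in both tables. Reads of the member and of its neighbour could not be separated.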

How the data were processed

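Poly(A) RNA of 1 SKP and 1 fibroblast culture was sequenced, per the labels' protocols. The deposited gene tables hold raw read counts, whole numbers, per the file headers. These counts are headed as unique, yet their totals lie above the reads with a single match by 4370357 in SKPs and 3924587 in fibroblasts, so how related genes share reads is uncertain. The authors computed RPKM from these counts, the gene length and the total, per the file headers. Coverage was deposited in percent of the gene length. The authors' deposited table holds log2 of fibroblast over SKP RPKM with a p-value and an FDR, and the sources used here do not name its test. The submitters' processing notes name the build mm9, with no aligner or annotation given in the sources used here.

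Ratios are SKP over fibroblast RPKM, with exact 95% Clopper-Pearson intervals of the read counts, or exact Poisson intervals for a single level. PCR duplicates are not independent molecules. A gene absent from a table has 0 reads there. The tools were Python 3.11.15, scipy 1.17.1, pandas 2.3.3, numpy 2.4.6 and matplotlib 3.10.9, and TMM factors, an alternative scaling, came from edgeR 4.0.16. Interval and call code was tested on simulated data. With 1 library per group no test was run and no replicate could be left out. For a gene of 1 kb, each read adds 0.0528 RPKM in SKPs and 0.0543 RPKM in fibroblasts.

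Members and lists were chosen with earlier results of these data known. Every member is named, and of 8 pathway lists up to 4 expressed genes with the largest ratio and 2 with the highest level. Some genes named by this rule are left out. Nf1, Myc, Fos, Junb, Ier3 and Plaur were named after their values were seen. Dusp1, Dusp2 and Dusp4 form a class of their own because their products act on both ERK and stress kinases. The 7 sequence motifs were searched on both strands of the 250 bases before each RefSeq start, after the ratios were known.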

Additional observations from a re-analysis of the deposited data

How the results depend on the processing

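The 9 members higher and 3 lower in the SKP library were the same genes without an expression filter and at a 1.5-fold threshold. They were also the same when ratios were centred on the median of expressed genes or scaled by TMM or by the upper quartile. These scalings moved log2 ratios by at most 0.02. The authors' filtered list holds the same genes, but it has the same ratios and the same 2-fold limit, so it is no separate check. With the filter at RPKM 5, 8 were higher and 2 lower, as Dusp15 and Dusp8 then fell below the filter. On the log2(RPKM + 1) scale 8 were higher and 2 lower, without Dusp15 and Dusp1. At a 4-fold threshold 6 were higher and 1, Dusp8, was lower, by construction of the stricter threshold. The median log2 ratio of expressed members ranged between 0.33 and 0.45 over these settings, and no called ratio changed direction. The depth limits Dusp2, Dusp13, Dusp27 and Spry3, with at most 59 reads in a library. Some called members also had few reads in 1 library. Dusp15 had 20 reads and Dusp5 26 reads in fibroblasts, and Dusp8 had 39 reads in SKPs. No paired analysis was possible because each cell type has 1 library, and leaving out a replicate was not possible for the same reason.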
